A study of Mus musculus with 6 samples.

Results

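The 9 genes described here encode killer cell lectin-like receptors and other receptors first known from natural killer (NK) cells: Klrg1, Klrd1, Klrk1, Klrc1, Klrc2, Klrb1c, Klre1, Ncr1 and Crtam. They were chosen by name, and each was read from the probe set that names it alone, which left 9 genes of the 19938 measured. All 9 were represented, each by 1 probe set, and no member had a further probe set. CD3+ cells were sorted from the spleens of 6 mice on day 10 after bone marrow transplantation, and the RNA of each mouse was hybridised to its own Affymetrix whole-transcript array. All 6 recipients were B6D2F1/J mice, an F1 hybrid of the parental B6 strain, which had been lethally irradiated and reconstituted with B6 bone marrow depleted of T cells. Rapamycin, which blocks the growth-regulating kinase mTOR, was given to 3 mice by intraperitoneal injection on alternate days up to day 10, each dose 1.5 mg/kg, and 3 mice received phosphate-buffered saline (PBS) on that schedule. B6 spleen cells were added in some recipients of the protocol, and the labels do not say whether these 6 mice were among them. The sort on CD3 did not separate donor cells from cells remaining in the host. Ages and sexes are not given in the labels.

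Killer lectin-like receptors are transmembrane proteins with a C-type lectin-like domain. They let NK cells and antigen-experienced CD8 T cells read MHC-related and stress-induced molecules on other cells. Inhibitory members carry tyrosine motifs in the cytoplasmic tail that recruit phosphatases, and activating members signal through adaptor proteins. In T cells several of them appear after activation and mark effector or memory cells, and after allogeneic transplantation such cells mediate graft-versus-host disease.

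In the RefSeq annotation of GRCm38.p6, 7 of the 9 genes lay on chromosome 6, where the natural killer gene complex clusters lectin receptor genes. Klrg1 spanned chr6:122270596-122282833 and Klrb1c chr6:128778485-128788641. Klre1, Klrd1, Klrk1, Klrc2 and Klrc1 lay in that order from chr6:129559365 to position 129682852. Ncr1 lay on chromosome 7 and Crtam on chromosome 9. No label names the genome build of the array design.

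RefSeq promoter sequences matched 6 of the 9 genes. The 250 bases before a listed start site are shown for Ncr1, whose groups did not overlap, for Klrk1, the member with the largest positive difference, and for the adjacent inhibitory and activating genes Klrc1 and Klrc2. The Klrc1 window lies inside the annotated span of its gene, and the Klrk1 and Klrc2 windows overlap the 5′ end of theirs. Ncr1 and Klrc2 each have a further listed window that is not shown. The Klre1 windows, also not shown, lie inside the annotated span of their gene. The sequences are written 5′ to 3′ on the gene's strand, with matches to the RUNX core TGTGGT or its reverse complement ACCACA, and to the T-box core TCACAC or its reverse complement GTGTGA, in capitals. RUNX and T-box factors are transcription factors of cytotoxic lymphocytes, and both strands were searched.
Ncr1 (GRCm38.p6, chr7:4337465-4337714, plus strand): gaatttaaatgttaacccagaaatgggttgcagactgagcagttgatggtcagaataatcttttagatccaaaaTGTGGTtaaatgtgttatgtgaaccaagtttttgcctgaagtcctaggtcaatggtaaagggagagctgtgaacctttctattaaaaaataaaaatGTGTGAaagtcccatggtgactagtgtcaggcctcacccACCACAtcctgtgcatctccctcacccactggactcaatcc
Klrk1 (GRCm38.p6, chr6:129623865-129624114, minus strand): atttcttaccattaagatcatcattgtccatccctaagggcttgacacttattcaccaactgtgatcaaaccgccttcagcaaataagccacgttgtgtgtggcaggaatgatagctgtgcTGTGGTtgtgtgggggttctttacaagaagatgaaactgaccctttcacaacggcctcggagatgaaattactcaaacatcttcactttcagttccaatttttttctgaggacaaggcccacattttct
Klrc1 (GRCm38.p6, chr6:129678974-129679223, minus strand): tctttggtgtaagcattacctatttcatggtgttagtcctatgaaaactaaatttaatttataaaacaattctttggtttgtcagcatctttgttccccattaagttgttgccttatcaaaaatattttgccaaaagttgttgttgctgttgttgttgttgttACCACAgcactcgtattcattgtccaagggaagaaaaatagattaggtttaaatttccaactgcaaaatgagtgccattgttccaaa
Klrc2 (GRCm38.p6, chr6:129660557-129660806, minus strand): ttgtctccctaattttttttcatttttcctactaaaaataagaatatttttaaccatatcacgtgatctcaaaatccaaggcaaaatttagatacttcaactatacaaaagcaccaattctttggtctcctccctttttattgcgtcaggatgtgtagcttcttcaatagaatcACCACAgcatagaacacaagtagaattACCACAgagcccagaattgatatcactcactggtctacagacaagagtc
The RUNX core was found in at least 1 listed window of all 6 matched genes, and in 8 of their 9 windows. Across the RefSeq table, 15.9% of 27025 genes held it in at least 1 listed window. The T-box core was found in 2 of the 6 matched genes, Ncr1 and Klre1, against 13.9% of all genes. The RUNX core occurred 2 times in the Ncr1 window and 2 times in the Klrc2 window, and the T-box core 1 time in the Ncr1 window. A match describes the letters of the window, and binding was not measured.

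The comparison asked whether rapamycin treatment of the recipient changed the transcripts of these receptors in splenic CD3+ cells. No member passed the test across all genes. With limma's moderated test and Benjamini-Hochberg adjustment, 0 of the 9 had an adjusted p under 0.05, and 2 of the 9, Ncr1 and Crtam, had an unadjusted p under 0.05. Across all 19938 genes 0.00502% were called at the adjusted threshold and 4.67% at the unadjusted one. Both of these members were lower with rapamycin and 0 were higher, against 3.07% and 1.6% of all genes. Differences are rapamycin minus PBS on the log2 scale, and they were negative for 6 members and positive for 3, with a median of -0.07. The corresponding share of negative differences over all genes was 55.3%, with a median of -0.01. In bulk RNA, fewer cells of a type and less RNA per cell cannot be told apart.

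**Figure D1:**
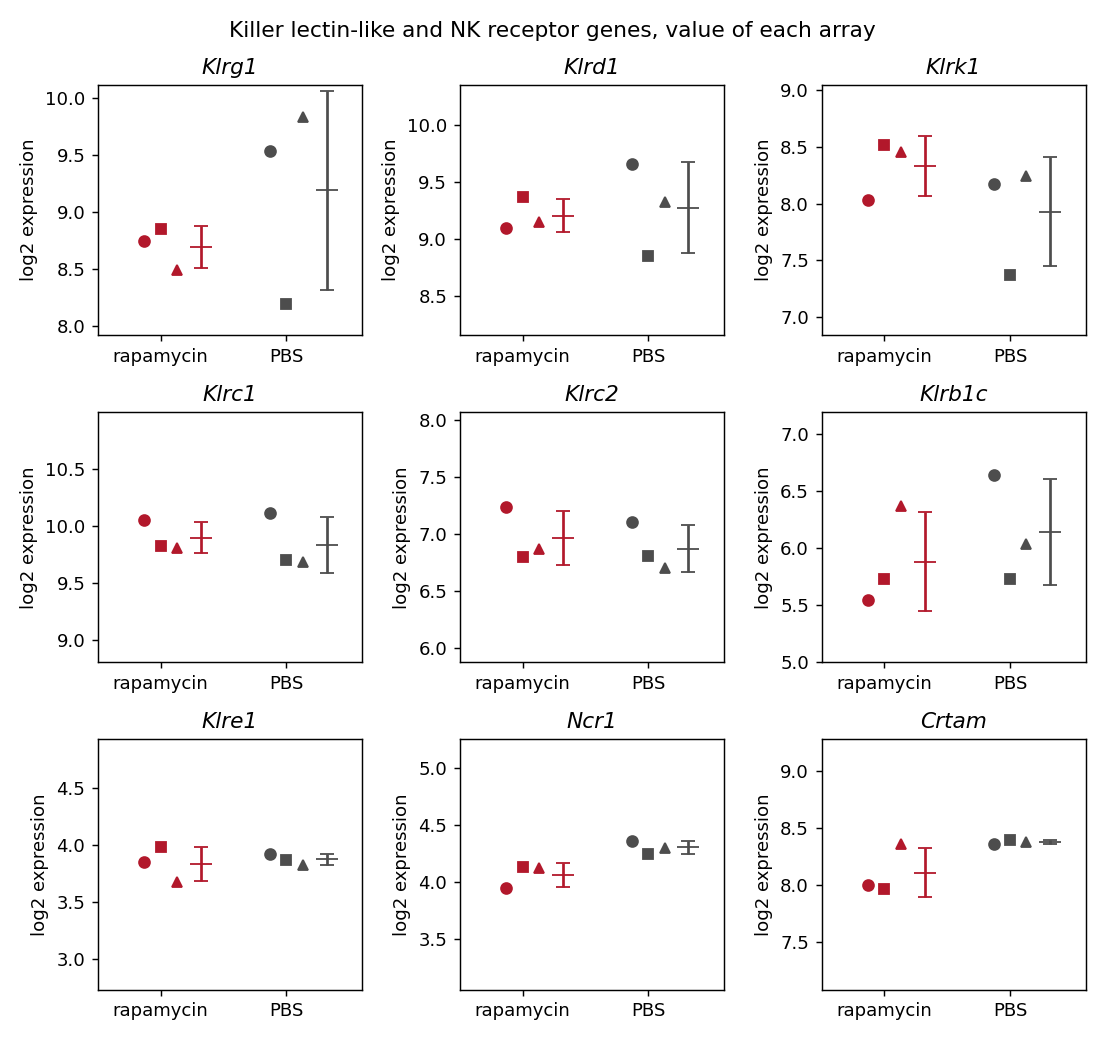
Log2 expression of the 9 receptor genes on each array, rapamycin at left and PBS at right. Circles, squares and triangles are replicates 1, 2 and 3, the horizontal mark and bar give the mean ± SD of 3 arrays, and every panel spans the same log2 range. The groups overlap in every panel but that of Ncr1, and the PBS squares are the lowest points for Klrg1, Klrd1 and Klrk1.

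Klrg1 encodes an inhibitory receptor for cadherins and marks short-lived effector CD8 T cells and mature NK cells. It measured 8.74, 8.85 and 8.49 in the rapamycin mice, against 9.54, 8.20 and 9.84 in the PBS mice. Replicates 1 and 3 of the PBS group lay above all rapamycin mice, and PBS replicate 2 lay below all of them, so the groups overlapped. The difference was -0.50 (SE 0.36, 95% interval -1.32 to 0.33, adjusted p = 0.9998 in limma), a 1.41-fold lower level whose interval reached from 2.504-fold lower to 1.26-fold higher. The PBS values spanned 1.64 log2 and the rapamycin values 0.363 log2. The spread over the 6 arrays placed Klrg1 at the 99.7th percentile of all genes.

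The size of the Klrg1 difference depended on PBS replicate 2. Without that array the difference was -0.99 (SE 0.14, 95% interval -1.33 to -0.66), with an unadjusted p of 0.000187 and an adjusted p of 0.392 in limma. This array was singled out after its value was seen, and leaving it out removed most of the PBS spread. The SE, interval and p of that fit therefore overstate the certainty of a fall. Over the 6 fits that each left out 1 array the Klrg1 difference lay between -0.99 and -0.17, with -0.17 found without PBS replicate 3.

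Klrd1 encodes CD94, the shared partner chain of the NKG2 receptors. Klrd1 measured 9.09, 9.36 and 9.15 in the rapamycin mice, against 9.65, 8.85 and 9.32 in the PBS mice. The rapamycin values lay inside the range of the PBS values. The difference was -0.07 (SE 0.18, 95% interval -0.49 to 0.35), and it turned to 0.12 without PBS replicate 1.

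Klrc1 encodes NKG2A, the inhibitory partner of CD94, and Klrc2 encodes NKG2C, its activating counterpart. Both heterodimers bind the MHC molecule Qa-1. Klrc1 measured 10.05, 9.83 and 9.81 with rapamycin, against 10.12, 9.70 and 9.68 with PBS. Klrc2 measured 7.24, 6.80 and 6.87 with rapamycin, against 7.11, 6.80 and 6.71 with PBS. In both genes replicate 1 was the highest array of each group, and the groups overlapped. The differences were 0.06 (SE 0.13, 95% interval -0.24 to 0.36) for Klrc1 and 0.09 (SE 0.14, 95% interval -0.23 to 0.42) for Klrc2. These intervals exclude a fall of more than 1.18-fold in either gene and a rise of more than 1.28-fold for Klrc1 or 1.34-fold for Klrc2. Klrc1, Klrc2 and Klrc3 are closely similar paralogs, and how far their probe sets read each other's transcripts was not tested. Both differences became negative without rapamycin replicate 1, at -0.02 for Klrc1 and -0.04 for Klrc2, and the Klrc1 difference was also negative without PBS replicate 2 (-0.0035) or PBS replicate 3 (-0.014).

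Klrk1 encodes NKG2D, an activating receptor for stress-induced ligands that also co-stimulates CD8 T cells. It measured 8.03, 8.51 and 8.45 in the rapamycin mice, against 8.17, 7.37 and 8.24 in the PBS mice. Rapamycin replicates 2 and 3 were the highest arrays, rapamycin replicate 1 lay between PBS arrays, and PBS replicate 2 was the lowest by a wide margin. The difference was 0.40 (SE 0.23, 95% interval -0.12 to 0.92, adjusted p = 0.9998 in limma). It was 0.12 without PBS replicate 2 and between 0.31 and 0.56 without any other array.

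Klrb1c encodes NK1.1, an activating receptor that defines NK cells and NKT cells of B6 mice. It measured 5.54, 5.73 and 6.37 with rapamycin, against 6.65, 5.73 and 6.04 with PBS. Each group held both low and high arrays, with ranges of 0.826 log2 with rapamycin and 0.914 log2 with PBS. The difference was -0.26 (SE 0.26, 95% interval -0.86 to 0.34), and it ran from -0.50 without rapamycin replicate 3 to -0.01 without PBS replicate 1.

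Klre1 encodes a receptor of mouse NK cells that pairs with the products of Klri1 and Klri2. It measured 3.85, 3.98 and 3.68 with rapamycin, against 3.92, 3.87 and 3.83 with PBS. All values lay far below the array medians of 6.03 to 6.17, and whether the transcript was detected was not tested. The difference was -0.04 (SE 0.09, 95% interval -0.25 to 0.17), and it was 0.04 without rapamycin replicate 3. Klri1 measured 3.92, 3.88 and 3.84 with rapamycin and 3.81, 3.76 and 3.55 with PBS, and Klri2 had a difference of -0.02 (SE 0.11).

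Ncr1 encodes NKp46, an immunoglobulin-like activating receptor used to define NK cells across mouse strains. It measured 3.94, 4.13 and 4.12 in the rapamycin mice, against 4.36, 4.25 and 4.30 in the PBS mice. All 3 rapamycin values were below the lowest PBS value. The groups did not overlap for 1 of the 9 members, against 9.42% of all genes in either direction and 6.28% lower with rapamycin. The means were 4.07 ± 0.10 with rapamycin and 4.31 ± 0.06 with PBS (SD, n = 3 each). The difference was -0.24 (SE 0.08, 95% interval -0.43 to -0.05, unadjusted p = 0.0197, adjusted p = 0.982 in limma). The exact two-sided permutation test gave p = 0.1, the smallest value that 3 against 3 mice allow. The difference lay between -0.27 and -0.18 whichever array was left out. Its sign could not turn in these fits, since the groups did not overlap. These values also lay below every array median, and whether the transcript was detected was not tested.

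Crtam encodes an immunoglobulin superfamily receptor of activated CD8 T cells and NK cells that binds the adhesion molecule Cadm1. It measured 8.002, 7.960 and 8.355 in the rapamycin mice, against 8.354, 8.397 and 8.375 in the PBS mice. Rapamycin replicates 1 and 2 lay below all PBS mice, and rapamycin replicate 3 lay at the level of the PBS mice. The means were 8.11 ± 0.22 with rapamycin and 8.38 ± 0.02 with PBS (SD, n = 3 each). The difference was -0.27 (SE 0.11, 95% interval -0.52 to -0.02, unadjusted p = 0.0396, adjusted p = 0.9998 in limma), and it lay between -0.39 and -0.20 whichever array was left out.

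**Figure D2:**
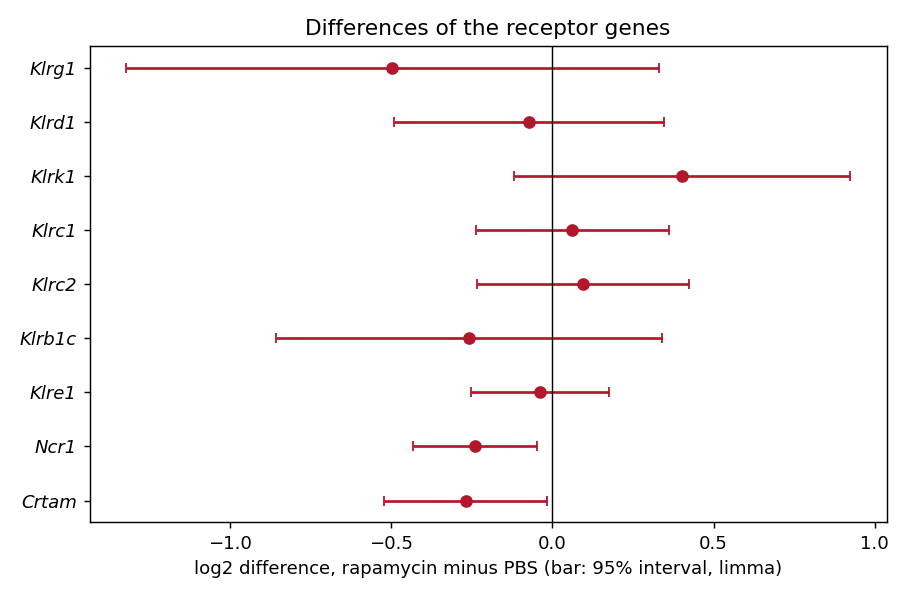
Log2 difference, rapamycin minus PBS, of each receptor gene (points) with its 95% interval from limma (bars). The intervals of Ncr1 (-0.43 to -0.05) and Crtam (-0.52 to -0.02) lie below 0 before adjustment for the number of genes, and the Klrg1 interval is the widest.

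The members differed in how far the mice of a group varied. Klrg1, Klrk1 and Klrb1c had a spread over the 6 arrays at or above the 98.7th percentile of all genes, and Klre1 lay at the 37.3rd. For 5 of the 9 members the SD was larger with PBS than with rapamycin, against 44.6% of all genes. PBS replicate 2 was the lowest of the 6 arrays for 3 members, Klrg1, Klrd1 and Klrk1, and for 8.98% of all genes. For Klrc1, Klrc2 and Klrb1c it lay within the range of the other arrays, and for Crtam it was the highest. Over the 6 fits that each left out 1 array, the median of the 9 differences ran from -0.26 without PBS replicate 2, where 7 differences were negative, to -0.0056 without PBS replicate 1, where 5 were negative. In each of these fits 0 members passed the adjusted threshold.

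**Figure D3:**
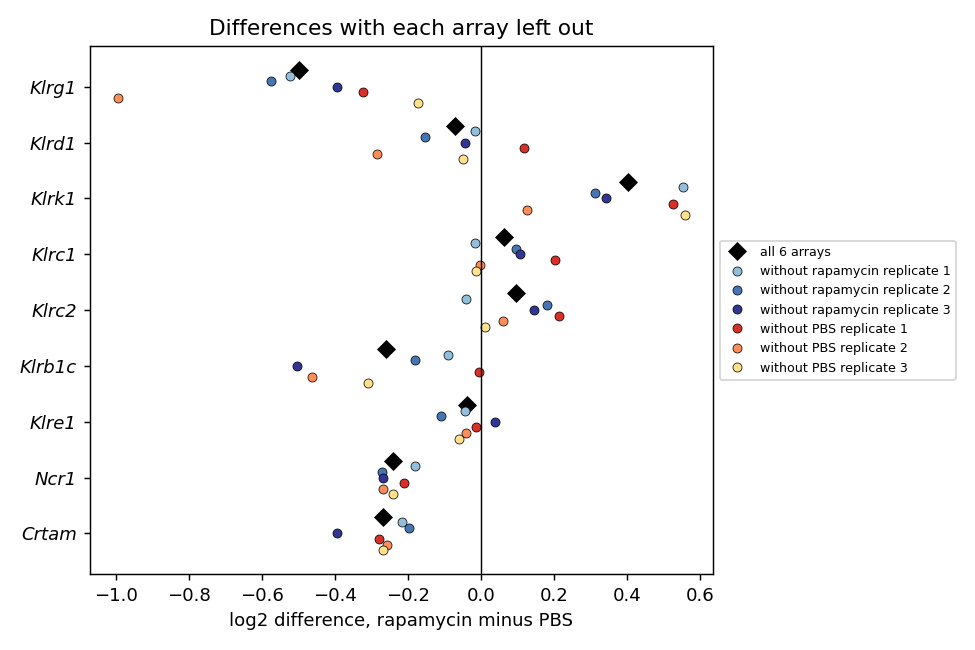
Log2 difference, rapamycin minus PBS, of each receptor gene over all 6 arrays (black diamonds) and with each array left out (coloured circles). Klrg1 moves to -0.99 without PBS replicate 2, Klrk1 to 0.12, and Ncr1 and Crtam stay below 0 in all 6 fits that leave out an array. For Ncr1 that sign was fixed, since its groups did not overlap. For Crtam it was nearly fixed, since only rapamycin replicate 3 reached the PBS values.

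The genes whose profile over the 6 arrays was nearest to that of Klrg1, the member with both the largest spread and the largest absolute difference, were Nrarp, Itga2, Itgax and Apobec2. Likeness was the root mean square distance between profiles centred on their mean over the 6 arrays. Nrarp, a feedback inhibitor of Notch signalling, lay at 0.133 log2 from Klrg1, and the other 3 at 0.301 to 0.315. Nrarp measured 6.04, 5.99 and 5.80 with rapamycin, against 6.69, 5.73 and 7.06 with PBS, and its likeness to Klrg1 follows from the choice. Itga2, the alpha-2 integrin CD49b of NK cells and some T cells, measured 7.34, 7.49 and 7.47 with rapamycin, against 8.54, 7.48 and 8.23 with PBS. Itgax encodes CD11c, a dendritic cell integrin also found on effector CD8 T cells, and had a difference of -0.38. Apobec2, a member of the cytidine deaminase family, had -0.70 (unadjusted p = 0.00698, adjusted p = 0.967 in limma).

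The nearest profiles to Klrd1 and Klrk1 were looked up after the values were seen, and their likeness to these members follows from the choice. The 4 nearest profiles to Klrd1 were those of Cd59a, Gzma, Rara and Gcnt2, at 0.0807 to 0.097 log2. Gzma, the granzyme A gene of cytotoxic cells, measured 11.26, 11.24 and 11.15 with rapamycin, against 11.67, 10.84 and 11.30 with PBS. The 4 nearest to Klrk1 were Napsa, Gpr84, Pilra and Atp6v0a1, at 0.109 to 0.134 log2. Gpr84 and Pilra encode receptors known mainly from myeloid cells, and Pilra measured 8.36, 9.02 and 8.95 with rapamycin, against 8.75, 8.09 and 8.80 with PBS. The mean level of the 8 macrophage markers was 7.98 to 8.46 with rapamycin and 8.38 to 8.85 with PBS. That mean takes in Spic at -1.34 and Vcam1 at -0.90, while Csf1r and Cd68 differed by -0.01 and Adgre1 by 0.10. The part of other cells in the Klrk1 values was not tested.

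**Figure D4:**
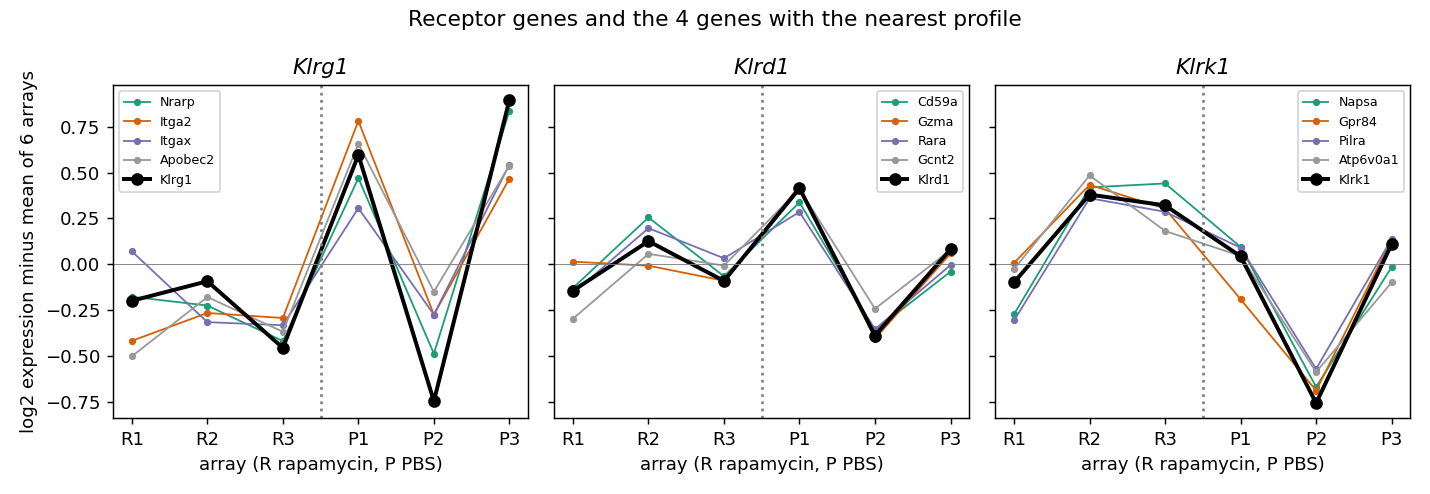
Log2 expression minus the mean of the 6 arrays for Klrg1, Klrd1 and Klrk1 (black) and the 4 genes nearest to each in root mean square distance (coloured), with rapamycin arrays R1 to R3 left of the dotted line and PBS arrays P1 to P3 right of it. In all 3 panels the black line is lowest at PBS replicate 2. Lines join arrays for reading only, since replicates have no order.

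Genes that act with these receptors gave no calls either. Of 16 adaptor and kinase genes, 0 passed, 9 were negative and the median was -0.01. Hcst, the DAP10 adaptor of NKG2D, measured 7.88, 8.11 and 8.05 with rapamycin, against 8.26, 7.94 and 8.41 with PBS. Tyrobp, the DAP12 adaptor used by activating receptors and by myeloid cells, measured 9.32, 9.88 and 10.21 with rapamycin, against 9.72, 9.25 and 9.71 with PBS. The groups overlapped for each adaptor, with differences of -0.19 (SE 0.13) for Hcst and 0.24 (SE 0.22) for Tyrobp. Fyn, a Src family kinase of lymphocytes, had -0.18 (unadjusted p = 0.0465 in limma). The groups did not overlap for Fyn, 1 of the 16, against 9.42% of all genes, and Fyn was named for its small p. Pik3r1, a regulatory subunit of phosphoinositide kinase, had -0.18 (SE 0.11).

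Of the 4 genes of inhibitory signalling, 0 passed and 3 were negative. Csk, a kinase that restrains Src family kinases, had -0.13 (SE 0.07) and Inpp5d, the lipid phosphatase SHIP, had -0.07 (SE 0.08). Of 18 listed ligand genes 9 were measured by a probe set of their own, and 0 passed. The Crtam ligand gene Cadm1 measured 5.77, 5.74 and 5.70 with rapamycin, against 6.01, 6.09 and 5.52 with PBS. Clec2d, whose product is a ligand of an NKR-P1 receptor, had 0.12 (SE 0.12).

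Other lectin receptor genes of the natural killer complex and its neighbourhood were measured for 25 of 31 listed, and 0 passed, with 10 negative, 15 positive and a median of 0.02. The missing ones included Klra1, Klra4, Klra7, Klra9 and Klra10, which no probe set named alone. All Klra genes that were measured had positive differences. Klra3 had 0.60 (SE 0.37), Klra2 0.45 (SE 0.23) and Klra6 0.41 (SE 0.24). Klra8 had 0.27 (SE 0.12), Klra5 0.08 (SE 0.15) and Klra17 0.02 (SE 0.16). Klrh1 had the most negative difference of the list, at -0.51 (SE 0.24). The groups overlapped for Klrh1 and for each of these Klra genes. Clec12a, an inhibitory receptor mainly of myeloid cells, measured 8.75, 9.07 and 9.63 with rapamycin, against 8.83, 8.42 and 8.62 with PBS, a difference of 0.52 (unadjusted p = 0.0332). Clec1b, a platelet receptor, had -0.26 (unadjusted p = 0.0298) at values of 3.28 to 3.50 with rapamycin and 3.58 to 3.82 with PBS. PBS replicate 2 was the lowest array for 8 of these 25 genes.

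Receptors outside the lectin family that NK cells share with effector T cells were measured for 12 of 14 listed, and 0 passed, with 5 negative and a median of 0.07. Il2rb, the interleukin-2 and interleukin-15 receptor beta chain, measured 12.67, 12.73 and 12.70 with rapamycin, against 12.87, 12.83 and 12.85 with PBS. Il18rap, a chain of the interleukin-18 receptor, measured 10.67, 10.67 and 10.71 with rapamycin, against 10.56, 10.62 and 10.46 with PBS. The groups did not overlap for these 2 of the 12 measured genes, against 9.42% of all genes. Both were named for the smallest p values of the list, a choice that favours groups that do not overlap. Their differences were -0.15 (unadjusted p = 0.0681) and 0.14 (unadjusted p = 0.105) in limma.

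Among transcription factors of cytotoxic and NK cells, 14 of 15 were measured, 0 passed and 9 were negative. Tox, a factor of exhausted T cells and of NK cell development, measured 11.13, 11.23 and 11.17 with rapamycin, against 11.46, 11.46 and 11.41 with PBS, a difference of -0.26 (unadjusted p = 0.00625, adjusted p = 0.967 in limma). Nfil3, required for NK cell development, measured 8.27, 8.42 and 8.34 with rapamycin, against 8.10, 8.11 and 8.17 with PBS, a difference of 0.22 (unadjusted p = 0.0217). The groups did not overlap for these 2 of the 14 measured factors, against 9.42% of all genes. Both were named for their small p, a choice that favours groups that do not overlap. Eomes, a T-box factor of NK and memory CD8 T cells, had -0.25 (SE 0.17), and Runx3, a RUNX factor of CD8 T cells and NK cells, had -0.17 (SE 0.15).

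The arrays carried the markers of the sorted population, and transcripts of other cell types as well. Cd3e measured 12.78 to 12.92 with rapamycin and 12.82 to 12.92 with PBS. Cd3d, Cd3g and Cd247 differed by -0.08 to 0.07. Of 8 measured T cell markers 6 were negative, with Cd5 at -0.19 and Cd28 at -0.14. Cd8a differed by 0.03 (SE 0.09), Cd8b1 by -0.13 (SE 0.08) and Cd4 by 0.14 (SE 0.20), and of the CD4 list Cd40lg differed by 0.21 and Zbtb7b by 0.11. Of the 11 measured NK cell markers 8 were negative, against 55.3% of all genes, and the list mean was 8.10 to 8.31 with rapamycin and 8.11 to 8.51 with PBS. This list includes the members Ncr1, Klrb1c and Klre1, each negative, so it is not separate from them. The 3 positive markers of the list were Klra8 at 0.27 (SE 0.12), Tyrobp at 0.24 (SE 0.22) and Fcer1g at 0.12 (SE 0.20). Among the NK cell markers Itga2, whose values are given above, had the largest absolute difference at -0.65 (unadjusted p = 0.0206, adjusted p = 0.982 in limma). Ncr1, Klre1 and Klra8 lay between 3.37 and 4.36 on all arrays, Klrb1c between 5.54 and 6.65 and Itga2 between 7.34 and 8.54. Of 3 measured gamma-delta and innate-like markers, Il23r differed by 0.46 and Zbtb16 by -0.21. Granulocyte markers were positive in 9 of 9 (list mean 9.10 to 10.39 with rapamycin and 8.44 to 9.80 with PBS), with Elane at 0.61 and Lcn2 at 0.45. Lcn2 measured 12.34 to 12.84 with rapamycin and 11.67 to 12.76 with PBS, not far below Cd3e. Macrophage markers were negative in 7 of 8, with Spic at -1.34 and C1qa at -0.56, but Csf1r and Cd68 were at -0.01 and Adgre1 at 0.10. B cell markers were negative in 2 of 5, with Cd79b at -0.54 and Ms4a1 at 0.05. Of 4 erythroid markers 3 were positive, with Epb42 at 0.31 and Slc4a1 at 0.45. No gene of these lists passed over all genes, and their part in the receptor values was not tested.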

How the data were processed

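The deposited values are log2 expression, made by the authors with Affymetrix Expression Console and RMA, per the submitters' processing notes; no versions, summary level or genome build are given there. RMA corrects background, equalises the arrays' distributions and compresses differences near background. The number of arrays limits the precision. Gene symbols came from the probe table of the platform: of 35556 probe sets, 21789 named 1 gene, 1621 several and 12146 were not listed. Where a gene had several probe sets, the one with the highest mean over the 6 arrays was kept. Differences were tested with limma 3.58.1 in R 4.3.3 (group as the only term, Benjamini-Hochberg over 19938 genes). All tests were two-sided. In 10 simulations of 19938 genes with 200 changed genes each, this test found 93.1% of those changed 2-fold, and false calls made up 5.55%. The largest member difference was 1.41-fold, and the share found for changes below 2-fold is not given here. Simulated variances followed the fitted distribution over all genes. The share found therefore need not hold for genes with a spread as large as that of Klrg1, Klrk1 and Klrb1c. The titles call the arrays biological replicates. No batch is given in the labels. Figures used matplotlib 3.10.9 in Python 3.11.15.

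Named were all 9 members, the CD3, CD4 and CD8 chains, the genes of each list with an unadjusted p under 0.05 (its 2 smallest p values where fewer than 2 genes reached that), and the 4 genes nearest to the member with the largest spread. Hcst, Tyrobp, Eomes, Runx3, Klri1, Klri2 and Klra8 were added for their roles, and the neighbours of Klrd1 and Klrk1 after their values were seen. Vcam1, Adgre1, Csf1r and Cd68 were also added after their values were seen, to show the spread of the macrophage list. Fcer1g, Klrh1, Klra2, Klra3, Klra5, Klra6 and Klra17 were added likewise, for the NK cell marker and lectin receptor lists. The members and lists were chosen with earlier results of these data known.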

Additional observations from a re-analysis of the deposited data

How the results depend on the processing

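A total of 13 alternatives were run, which changed the probe set rule, the normalization, the filter on low values, the variance model, array weights or pairing, or left out an array. No member passed under any of them, and the smallest adjusted p was 0.392, for Klrg1 without PBS replicate 2. The probe set rule, the filter on low values, the variance model and the replicate block could not change the difference of a member. Signs could turn only under the other alternatives, and for Ncr1 not by leaving out an array. Of 114 member values under all alternatives, including those fixed ones, 106 kept their sign. The other 8 turned. The largest of them was Klrd1 at 0.12 without PBS replicate 1, against -0.07 over all 6 arrays. With array weights Klrc1 was -0.027 and Klrc2 -0.016. Leaving out an array gave Klrd1 -0.28 to 0.12, Klrc1 -0.016 to 0.20, Klrc2 -0.042 to 0.21 and Klre1 -0.11 to 0.039. The count of negative members was 5 to 8 without 1 array, and 3 of 6 with genes below the median level left out (median -0.0051), where Klrb1c, Klre1 and Ncr1 were not tested. The median member difference was -0.26 to -0.0056 without 1 array and -0.12 with array weights. Over all genes 1 was called, against 0 with the replicate block and 0 to 7 without 1 array (7 without rapamycin replicate 1, and 0 without any other). The cause was not tested. Deviations from the group mean correlated at 0.09, -0.19 and 0.19 between same-numbered arrays, so the numbers were not taken as pairs. With the replicate block 0 members passed. The block leaves the differences as they were, so 6 were again negative, with a median of -0.07.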
